A study of Rattus norvegicus with 24 samples.

Results

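The 9 genes described here are the acyl-CoA thioesterase genes Acot1, Acot2, Acot5 and Acot7, the fatty acid and fuel genes Pdk4, Cpt1a, Angptl4 and Plin2, and Ppara, which encodes the nuclear receptor PPAR-alpha. They are the rows of the deposited expression table that carry these names, 9 of 17811 rows, with 1 row for each gene. The genes were selected on the measured expression differences between groups of these same rats, so the differences between groups given for them are descriptions and not tests of the genes. RNA of lumbar dorsal root ganglia (DRG), which hold the cell bodies of primary sensory neurons, was sequenced in 24 female Sprague-Dawley rats, 8 in each of 3 groups. The OVX-TPTD group was ovariectomized at 12 weeks of age and received teriparatide (TPTD), a fragment of human parathyroid hormone, at a dose of 30 µg/kg, given 3 times weekly over 4 weeks. OVX-vehicle rats had the same surgery but were given vehicle, and Sham-vehicle rats were given vehicle (saline) after a sham operation. All rats were 20 weeks old at collection, and each group of 8 rats had been picked for a body weight and a heat withdrawal latency near the mean. The study asked which transcripts of the ganglia differ after ovariectomy and after TPTD.

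Acyl-CoA thioesterases split fatty acyl-CoA into free fatty acid and CoA. The free fatty acid can leave the compartment or act as a ligand, and the CoA can be used again. PPAR-alpha is a receptor for fatty acids that binds DNA with a retinoid X receptor and, in liver and heart, raises the transcription of genes of fatty acid oxidation in fasting, among them genes of the Acot family, Cpt1a, Pdk4, Angptl4 and Plin2. In the nervous system, Acot7 is known as the abundant thioesterase of neurons.

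The expected counts summed to between 15573490 and 19069926 per rat. As a check of the labelled tissue, the summed FPKM (fragments scaled to transcript length and to the mapped fragments of the rat) of 8 neuron markers lay between 13200 and 16100 in every rat, and the defining adipocyte gene Adipoq reached at most 0.0941 FPKM. For OVX-vehicle replicate 1, the title says OVX while the surgery label says sham. It stayed in the OVX-vehicle group, and Acot1, Acot5 and Angptl4 are given also after leaving this rat out or moving it to the Sham-vehicle group. In bulk tissue, fewer cells of a type and less RNA per cell cannot be told apart.

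Acot1, Acot2 and Acot5 lie in a row on the plus strand of chromosome 6 with Acot3 and Acot4 between Acot1 and Acot5. In the table, on build rn6, Acot2 spans chr6:107460668-107467478, Acot1 chr6:107485088-107493080 and Acot5 chr6:107550904-107557688. Their upstream sequences are shown because these neighbours differed in how they stood between the groups. RefSeq promoter windows on build GRCr8 were found for all 9 genes, and the 250 bases before the start are printed for Acot1 (chr6:109367024-109367273), Acot2 (chr6:109342590-109342839) and Acot5 (chr6:109432812-109433061), all on the plus strand, with each exact AGGTCA in capitals.
Acot1: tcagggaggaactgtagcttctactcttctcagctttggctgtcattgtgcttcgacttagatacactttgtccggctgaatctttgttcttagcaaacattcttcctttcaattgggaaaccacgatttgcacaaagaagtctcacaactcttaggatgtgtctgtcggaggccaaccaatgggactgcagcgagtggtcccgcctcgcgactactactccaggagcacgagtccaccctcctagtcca
Acot2: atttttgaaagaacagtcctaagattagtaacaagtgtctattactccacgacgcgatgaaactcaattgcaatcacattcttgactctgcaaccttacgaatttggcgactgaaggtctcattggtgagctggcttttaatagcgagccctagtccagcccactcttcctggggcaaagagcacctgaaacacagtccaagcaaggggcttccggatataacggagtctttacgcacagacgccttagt
Acot5: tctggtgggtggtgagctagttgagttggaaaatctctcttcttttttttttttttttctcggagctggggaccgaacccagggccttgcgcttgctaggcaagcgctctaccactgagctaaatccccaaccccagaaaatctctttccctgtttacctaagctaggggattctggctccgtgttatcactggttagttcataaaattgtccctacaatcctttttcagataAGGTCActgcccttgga

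AGGTCA is the core that nuclear receptors bind. It was searched on both strands of the 250 bases before each start, alone, as the direct repeat AGGTCANAGGTCA that PPAR-alpha binds with its partner (up to 2 mismatches), and as the inverted repeat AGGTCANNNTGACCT that estrogen receptors bind (up to 3 mismatches). Both repeats contain the core, so the searches overlap. The core was found in 1 of the 11 windows of the 9 genes, that of Acot5, and in 14.1% of all 33469 windows. The direct repeat was found in 0 of the 11 windows and in 3.15% of all windows, and the inverted repeat in 0 of the 11 and in 10.8% of all. With so few windows, a count of 0 does not set these genes apart from the rest. Sequence outside the 250 bases was not searched. The longest run of bases shared by the printed windows of Acot1 and Acot2 was 9 bases long.

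The levels of the 9 genes spanned a wide range. Acot7, the neuronal thioesterase, was the most abundant at 177 ± 11.5 FPKM (SD over the 24 rats), and it ranked 436 among the 17811 rows by mean FPKM. Plin2, a coat protein of lipid droplets, followed at 50.5 ± 5.35 FPKM, and Cpt1a, the enzyme of the outer mitochondrial membrane that controls the entry of long-chain fatty acids, at 38.9 ± 2.50 FPKM. The ranges of Plin2 (39.2 to 62.8 FPKM) and Cpt1a (32.6 to 43.2 FPKM) overlapped. Acot1, Angptl4, Pdk4 and Acot2 formed a middle set with means of 7.77 ± 1.49, 5.73 ± 1.07, 5.65 ± 1.23 and 4.70 ± 0.432 FPKM, and each of these neighbours in the order differed by less than the sum of their SDs. Ppara itself was near the lower end at 0.959 ± 0.198 FPKM, from 23 to 51 counts per rat, and Acot5 was the lowest at 0.408 ± 0.0922 FPKM, from 9 to 22.5 counts per rat. All 9 genes were above 0 in every rat and passed the filter on low counts.

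**Figure D1:**
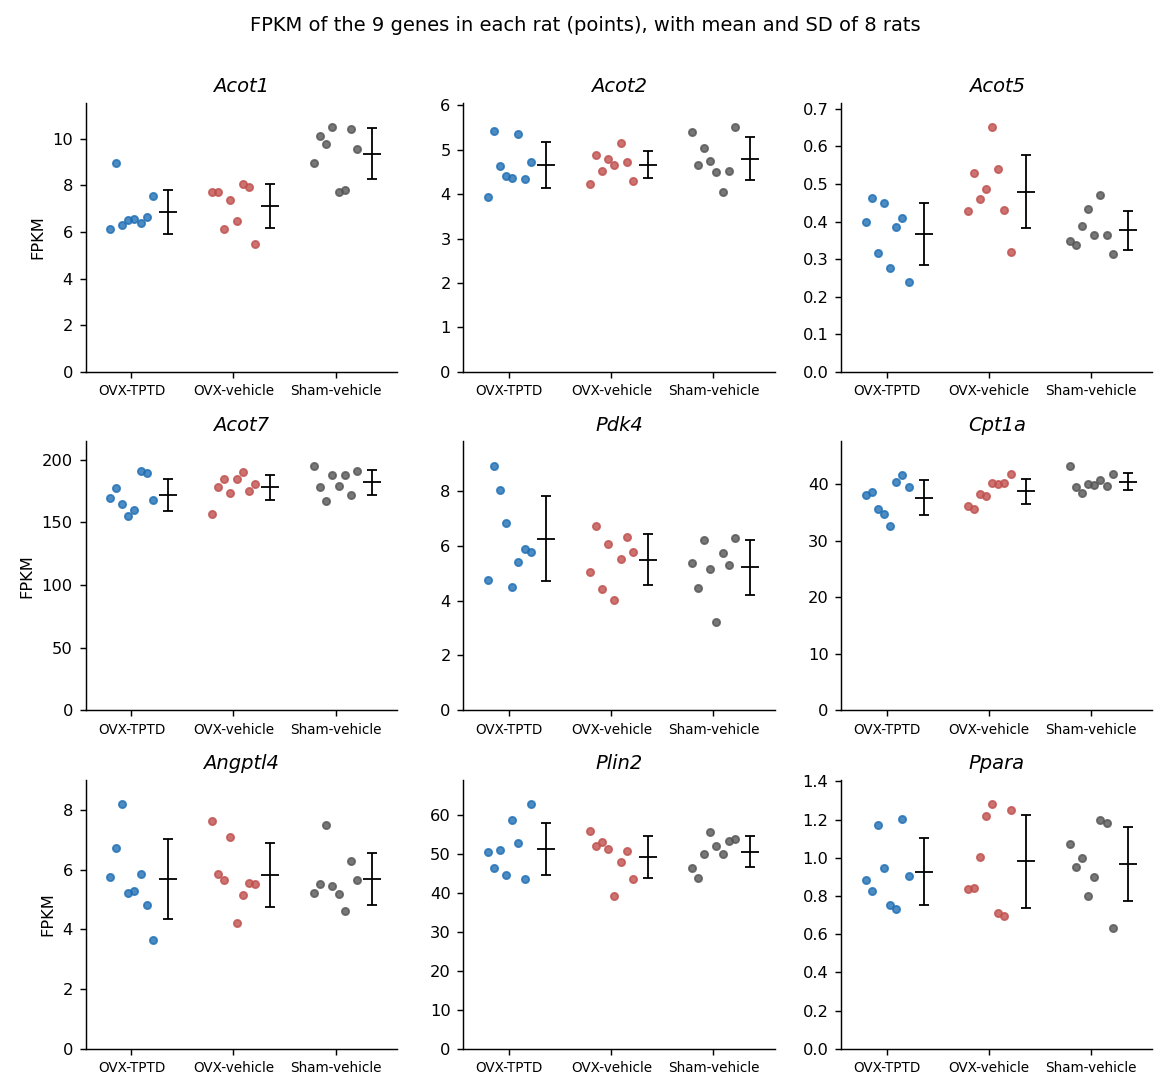
FPKM of the 9 genes in each of 24 rats, by group, with the mean and SD of 8 rats beside the points. All axes start at 0. Acot1 is the gene whose OVX-TPTD and OVX-vehicle rats sit mostly below the Sham-vehicle rats, and Acot5 is higher on average in the OVX-vehicle rats.

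Acot1, which encodes the cytosolic thioesterase of long-chain acyl-CoA, was lower in both ovariectomized groups. It ranged from 6.10 to 8.97 FPKM in the OVX-TPTD rats (median 6.52), from 5.49 to 8.04 in the OVX-vehicle rats (median 7.52) and from 7.72 to 10.5 in the Sham-vehicle rats (median 9.66). The groups overlapped at their edges. Of the 16 ovariectomized rats, 13 were below the lowest Sham-vehicle rat, and 5 of the 8 Sham-vehicle rats were above every ovariectomized rat. The exceptions were OVX-TPTD replicate 2 at 8.97 FPKM and OVX-vehicle replicates 6 and 7 at 8.04 and 7.93 FPKM. The 13 include OVX-vehicle replicate 1, the rat with conflicting labels. At 7.7233 FPKM, that rat was practically level with the lowest Sham-vehicle rat at 7.7238 FPKM. The means were 6.86 ± 0.951 FPKM in the OVX-TPTD group and 7.10 ± 0.951 in the OVX-vehicle group, against 9.35 ± 1.1 in Sham-vehicle rats (SD, n = 8 each).

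In the edgeR fit of all 12645 rows that passed the filter, the log2 difference of Acot1 was −0.40 (SE 0.0887) for the OVX-vehicle minus the Sham-vehicle group and −0.46 (SE 0.0887) for the OVX-TPTD minus the Sham-vehicle group. Its adjusted p values in edgeR, which describe a gene picked for its difference, were 0.268 and 0.0543, both above the threshold of 0.05, and the gene had the fifth smallest p of the table in each. The comparisons share the Sham-vehicle rats and are not independent. With both ovariectomized groups averaged against the Sham-vehicle group, a comparison added after the data were seen, the log2 difference was −0.43 (SE 0.0758, adjusted p = 0.0169 from edgeR). That value passed the threshold, but not without Sham-vehicle replicate 2 (adjusted p = 0.0711 from edgeR) or Sham-vehicle replicate 4 (adjusted p = 0.0509 from edgeR). Over the alternatives that leave out a rat, it ran from 0.00427 to 0.0711. Without OVX-vehicle replicate 1 the adjusted p was 0.0149 in edgeR, and with that rat counted as a Sham-vehicle rat it was 0.0489. For OVX-TPTD minus Sham-vehicle, Acot1 had −0.46 without that rat (adjusted p = 0.0408 from edgeR) and −0.43 with it moved (adjusted p = 0.139 from edgeR). For OVX-vehicle minus Sham-vehicle, it had −0.42 without that rat (adjusted p = 0.27 from edgeR) and −0.40 with it moved (adjusted p = 0.457 from edgeR).

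Between the ovariectomized groups, Acot1 differed little. The log2 difference of the OVX-TPTD minus the OVX-vehicle group was −0.05 (SE 0.0898), and the interval of 2 SE on each side ran from −0.23 to 0.13. Against the Sham-vehicle group, values within runs of replicate numbers come from the same rats on which the gene was selected and add no support. Within numbers 1 to 4, it was −0.51 for OVX-TPTD and −0.46 for OVX-vehicle rats, and within numbers 5 to 8 it was −0.40 for OVX-TPTD and −0.35 for OVX-vehicle rats. The adjusted p values in edgeR were 0.718 and 0.713 within numbers 1 to 4 and 0.46 and 1.0 within 5 to 8 for these groups.

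Acot2, the mitochondrial thioesterase encoded next to Acot1, did not share this pattern. Its values lay between 3.94 and 5.43 FPKM in the OVX-TPTD rats (median 4.53), between 4.23 and 5.15 in the OVX-vehicle rats (median 4.69) and between 4.05 and 5.51 in the Sham-vehicle rats (median 4.71). The 3 groups overlapped almost fully, with log2 differences of −0.06 (SE 0.0684) for OVX-TPTD minus Sham-vehicle and −0.05 (SE 0.0686) for OVX-vehicle minus Sham-vehicle. The ratio of Acot1 to Acot2 counts in the same rat was 0.986 ± 0.0984 in the OVX-TPTD group and 1.02 ± 0.12 in the OVX-vehicle group, against 1.30 ± 0.165 in Sham-vehicle rats (SD, n = 8 each). Its ranges were 0.791 to 1.1, 0.85 to 1.22 and 1.1 to 1.54 in these groups, so that the OVX-TPTD and Sham-vehicle rats met only near 1.1. This ratio carries the same Acot1 difference and is not further evidence of it.

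**Figure D2:**
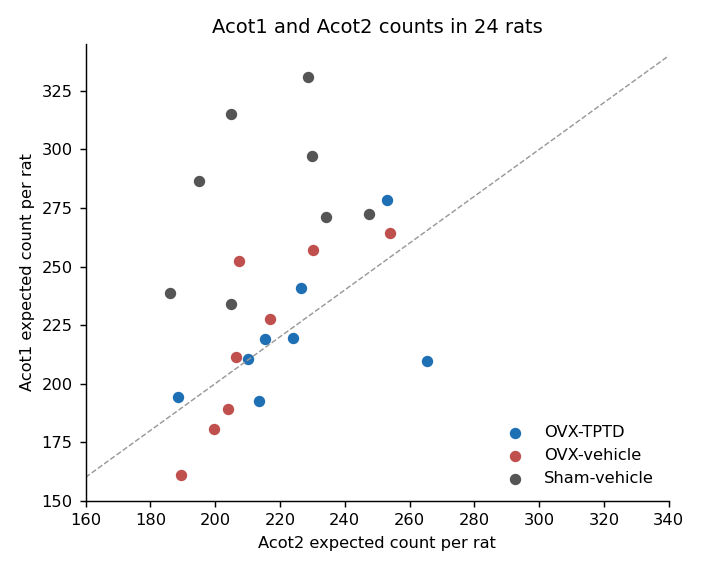
Expected counts of Acot1 (y axis) against Acot2 (x axis) in each of 24 rats, with the dashed line at equal counts. All 8 Sham-vehicle rats lie above the line, at ratios of 1.1 to 1.54, while OVX-TPTD and OVX-vehicle rats lie on both sides of it. The axes do not start at 0.

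The genes of this cluster are close copies, and a read can match more than 1 of them. The deposited count was not whole (tolerance 0.001) in 17 of 24 rats for Acot1, 13 for Acot2, 9 for Acot5 and all 24 for Acot3 and Acot4, whose rows overlap on the same strand. The split of reads between these rows is therefore uncertain. With the rows of Acot1 and Acot2 summed, chosen after seeing the data, the log2 difference was −0.27 (SE 0.0671) for OVX-TPTD minus Sham-vehicle and −0.24 (SE 0.0672) for OVX-vehicle minus Sham-vehicle. With Acot1 to Acot5 summed, these were −0.22 (SE 0.0442) and −0.19 (SE 0.0442). For both ovariectomized groups minus the Sham-vehicle group, the adjusted p in edgeR was 0.154 for Acot1 with Acot2 and 0.0377 for Acot1 to Acot5. Acot3, named for its place in the cluster, had a log2 difference of −0.18 (SE 0.101) in the OVX-TPTD and −0.14 (SE 0.101) in the OVX-vehicle group against Sham-vehicle, and Acot4 had 0.13 (SE 0.141) and 0.07 (SE 0.142). Neither passed.

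Acot5, known in mouse as a peroxisomal thioesterase, was higher on average in the OVX-vehicle rats than in both other groups, at very low counts. It ranged from 0.238 to 0.463 FPKM in the OVX-TPTD rats (median 0.392), from 0.318 to 0.651 in the OVX-vehicle rats (median 0.473) and from 0.313 to 0.470 in the Sham-vehicle rats (median 0.363). In counts, this is a difference of a few reads, with medians of 15, 16.5 and 13 per rat in these groups. All 8 OVX-TPTD rats were below the OVX-vehicle median, and 4 of 8 OVX-vehicle rats were above every Sham-vehicle rat. The log2 difference in edgeR was −0.35 (SE 0.161, adjusted p = 0.995) for OVX-TPTD minus OVX-vehicle and 0.32 (SE 0.163, adjusted p = 0.864) for OVX-vehicle minus Sham-vehicle. The OVX-vehicle rats enter both comparisons with opposite sign. Without OVX-vehicle replicate 1, Acot5 had −0.38 and 0.35 in these comparisons, and with it moved to Sham-vehicle −0.38 and 0.33. Within replicate numbers 1 to 4 and 5 to 8, the OVX-TPTD minus OVX-vehicle value of Acot5 was −0.17 and −0.55.

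Acot7, the most abundant member, differed little. It ranged from 155 to 191 FPKM in the OVX-TPTD rats, from 156 to 190 in the OVX-vehicle rats and from 167 to 195 in the Sham-vehicle rats, and the groups overlapped widely. Its log2 difference was −0.09 (SE 0.0463, adjusted p = 0.331 from edgeR) for OVX-TPTD minus Sham-vehicle.

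Among the genes of fuel use, Pdk4, which inactivates the pyruvate dehydrogenase complex by phosphorylation, varied widely, with a coefficient of variation of 24.8% among the OVX-TPTD rats. It ran from 4.48 to 8.91 FPKM in the OVX-TPTD rats (median 5.83), from 4.01 to 6.70 in the OVX-vehicle rats (median 5.65) and from 3.21 to 6.28 in the Sham-vehicle rats (median 5.33). Of the OVX-TPTD rats, 3 of 8 were above every OVX-vehicle rat, and the rest lay within the range of that group. The log2 difference was 0.19 (SE 0.138) for OVX-TPTD minus OVX-vehicle and 0.25 (SE 0.139) for OVX-TPTD minus Sham-vehicle, with intervals of 2 SE from −0.09 to 0.47 and from −0.02 to 0.53. Both intervals include 0. The values for Pdk4 rest on few rats. Within replicate numbers 1 to 4 they were 0.36 for OVX-TPTD minus OVX-vehicle and 0.41 for OVX-TPTD minus Sham-vehicle, but −0.00 and 0.07 within 5 to 8. Without OVX-TPTD replicate 2, the rat highest in Pdk4, they were 0.11 and 0.17.

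Cpt1a had a small difference in a gene with little spread. It ranged from 32.6 to 41.5 FPKM in the OVX-TPTD rats (median 38.4), from 35.6 to 41.8 in the OVX-vehicle rats (median 39.1) and from 38.5 to 43.2 in the Sham-vehicle rats (median 39.8). In each ovariectomized group, 4 of 8 rats were below every Sham-vehicle rat. In the OVX-vehicle group these were replicates 1 to 4, at 35.6 to 38.3 FPKM, while replicates 5 to 8 lay between 39.9 and 41.8. In the OVX-TPTD group they were replicates 1, 3, 4 and 5. Over the 11 alternatives other than leaving out 1 rat, the log2 difference of OVX-vehicle minus Sham-vehicle ran from −0.14 to −0.01. The log2 difference was −0.11 (SE 0.0453, unadjusted p = 0.0211 and adjusted p = 0.289 from edgeR) for OVX-TPTD minus Sham-vehicle, and −0.07 (SE 0.0453) for OVX-vehicle minus Sham-vehicle.

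The other 3 members showed no separation of groups. Angptl4, a secreted inhibitor of lipoprotein lipase, averaged 5.69 ± 1.34 FPKM in the OVX-TPTD group and 5.83 ± 1.08 in the OVX-vehicle group, against 5.68 ± 0.875 in Sham-vehicle rats (SD, n = 8 each). Plin2 averaged 51.4 ± 6.76, 49.3 ± 5.49 and 50.7 ± 3.96 FPKM in the same groups, and Ppara averaged 0.927 ± 0.175, 0.981 ± 0.243 and 0.968 ± 0.192 FPKM. Their log2 differences in the 3 comparisons lay between −0.08 and 0.06. That of Angptl4 for OVX-vehicle minus Sham-vehicle, 0.03, was −0.04 without OVX-vehicle replicate 1 and −0.09 with it moved to Sham-vehicle. For OVX-TPTD minus OVX-vehicle, Angptl4 had −0.04, and 0.03 in both cases. For Ppara, whose counts are few, the interval of 2 SE for OVX-vehicle minus Sham-vehicle ran from −0.31 to 0.31. Plin2 differed in sign between the replicate numbers. For OVX-TPTD minus OVX-vehicle, it had −0.14 within numbers 1 to 4 and 0.26 within 5 to 8. For OVX-vehicle minus Sham-vehicle, Plin2 had 0.10 within numbers 1 to 4 and −0.21 within 5 to 8. These were the extremes of the 11 alternatives other than leaving out 1 rat. In each comparison, only 1 recomputed value differed in sign from the value with all rats, also counting each rat left out.

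**Figure D3:**
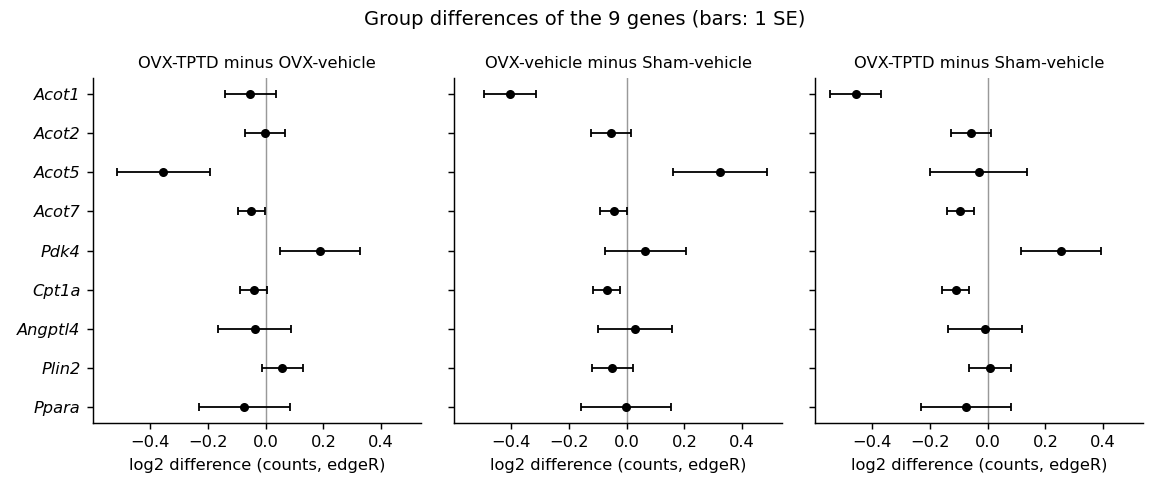
Log2 differences of the 9 genes in edgeR for OVX-TPTD minus OVX-vehicle, OVX-vehicle minus Sham-vehicle and OVX-TPTD minus Sham-vehicle, with bars of 1 SE. Acot1 stands apart in both comparisons with Sham-vehicle, at −0.40 and −0.46, and Acot5 lies at −0.35 and 0.32 in the first and second panels.

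Counted over the 9 genes, the edgeR fit called 0 for OVX-TPTD minus OVX-vehicle, 0 for OVX-vehicle minus Sham-vehicle and 0 for OVX-TPTD minus Sham-vehicle at an adjusted p under 0.05. It called 0%, 0.00791% and 0.0316% of the 12645 rows in these comparisons. At an unadjusted p under 0.05 in edgeR, 0, 1 and 2 of the 9 genes stood in them, against 3.65%, 4.82% and 15.1% of all rows, the 1 being Acot1 and the 2 Acot1 and Cpt1a. DESeq2 called 0, 1 and 1 of the 9, in both cases Acot1, and 1, 7 and 36 of its 15600 rows, more than edgeR's 0, 1 and 4. With both ovariectomized groups against Sham-vehicle, 1 of the 9 (Acot1) was called and 0.0554% of all rows. Since the group differences helped to choose the genes, nothing is read from these counts.

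The study's own thresholds, an unadjusted p under 0.05 and a log2 difference above 0.25 in FPKM, were applied with an exact permutation test to the 13024 rows above 0 in every rat. For OVX-TPTD minus OVX-vehicle, 1 of the 9 genes (Acot5) and 1.5% of all rows passed. For OVX-vehicle minus Sham-vehicle, 2 of the 9 (Acot1 and Acot5) and 1.52% of all rows passed, and for OVX-TPTD minus Sham-vehicle, 1 of the 9 (Acot1) and 2.74% of all rows. The mean log2 FPKM of Acot5 differed by −0.39 for OVX-TPTD minus OVX-vehicle (exact permutation p = 0.0306) and by 0.33 for OVX-vehicle minus Sham-vehicle (exact permutation p = 0.0222). That of Acot1 differed by −0.40 for OVX-vehicle minus Sham-vehicle (exact permutation p = 0.00155) and by −0.45 for OVX-TPTD minus Sham-vehicle (exact permutation p = 0.000777). Of all these rows, 2.6% had a larger difference than Acot1 in OVX-vehicle minus Sham-vehicle and 2.4% in OVX-TPTD minus Sham-vehicle. The genes were selected on differences between these same groups. The counts, permutation p values and shares therefore describe them and add no support. The median log2 difference of the 9 genes in edgeR was −0.04, −0.04 and −0.06 in the 3 comparisons, beside medians of all rows within 0.002 of 0.

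The deviations of each rat from its group mean do not enter these differences, so they were used to ask whether the genes varied together from rat to rat. Of the 36 pairs, 1 passed after Benjamini-Hochberg adjustment over the pairs. This was Acot7 with Cpt1a, with a Pearson r of 0.767 (adjusted p = 0.0018) and a Spearman rho of 0.74 (adjusted p = 0.00324) in a permutation test within groups over 24 rats. The r was 0.713 without the 2 rats farthest from the median of Acot7, 0.721 within replicate numbers 1 to 4 and 0.768 within 5 to 8. Acot1 and Acot2 had r = 0.47 (adjusted p = 0.24 in the permutation test), Acot1 and Pdk4 r = 0.444 (adjusted p = 0.24), and the lowest value was −0.499 for Acot5 and Plin2 (adjusted p = 0.24). The median of the 36 values was 0.019, with 21 above and 15 below 0. The share of passing pairs among other rows of the table was not computed. Whether an r of 0.767 is high for pairs of rows in these ganglia was therefore not tested. Acot7 and Cpt1a each had a higher r with another row, 0.925 for Acot7 with Ache and 0.87 for Cpt1a with Zmat3. These were the highest of 11396 values for each gene.

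Markers of neurons moved with the pair that passed. Over the same 24 rats and within groups, the mean of 8 neuron markers had r = 0.877 with Acot7, 0.749 with Cpt1a and −0.614 with Angptl4, and that of 4 satellite glial cell markers had −0.643, −0.525 and 0.485 with these genes. Acot1 had −0.134 with the neuron and 0.202 with the satellite glial cell markers. These values are descriptions of points that share libraries, and the part of the cell types in the correlation of Acot7 and Cpt1a was not tested.

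**Figure D4:**
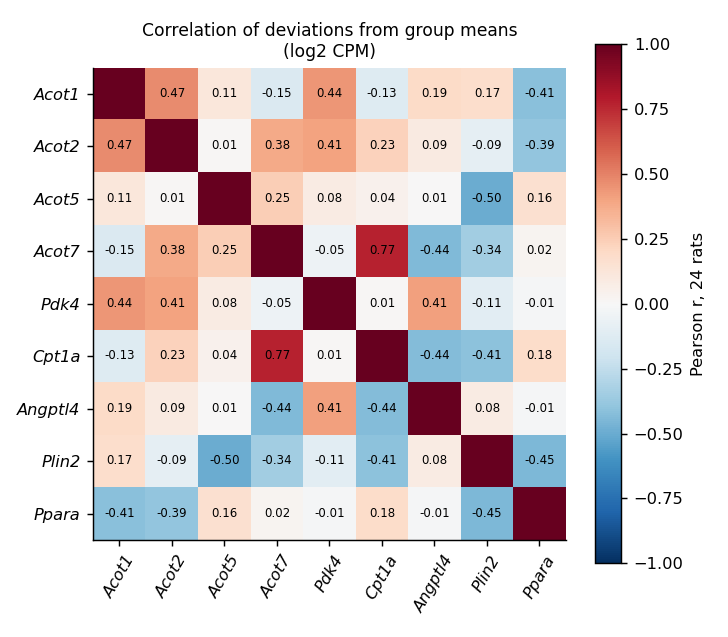
Pearson r between the 9 genes over 24 rats, of log2 CPM (counts scaled to the library total) after subtracting the group mean. The pair Acot7 and Cpt1a at 0.77 is the highest, and Acot5 and Plin2 at −0.50 the lowest.

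Over the whole table, among tested rows with a mean of at least 1 FPKM, the rows most like each gene in these deviations were named. For Acot1 they were Rpa2 (r = 0.698), Pex11a (0.683) and Wnt2b (0.646), and for Acot2 Slc10a3 (0.717), Ppp1ca (0.709) and Wdr55 (0.702). For Pdk4 they were Ddit4 (0.901), Errfi1 (0.807) and Nfkbia (0.772). Acot7 was most like Ache (0.925), Cpt1a most like Zmat3 (0.87), Plin2 most like Rraga (0.826), Acot5 most like Rnf24 (0.764), Angptl4 most like Syngr2 (0.723) and Ppara most like Sult2b1 (0.693). These are the highest of 11396 or 11397 values each and carry no test.

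The wider pathways of these genes were described with lists. None of the genes in the 7 lists of fatty acid metabolism passed edgeR's threshold in any of the 3 comparisons, and DESeq2 called 0 of them. At an unadjusted p under 0.05 in edgeR, a list had at most 2 genes for OVX-TPTD minus OVX-vehicle, 2 for OVX-vehicle minus Sham-vehicle and 6 for OVX-TPTD minus Sham-vehicle, where 3.65%, 4.82% and 15.1% of all rows stood. Of the other acyl-CoA thioesterases, 8 rows were tested, and their median log2 difference was 0.06 for OVX-TPTD minus OVX-vehicle, 0.07 for OVX-vehicle minus Sham-vehicle and 0.11 for OVX-TPTD minus Sham-vehicle. Acot13, a thioesterase linked to mitochondria, had 0.22 (SE 0.093, adjusted p = 0.29 from edgeR) and Acot11 had 0.18 (SE 0.082, adjusted p = 0.32 from edgeR) in the last of these, opposite in sign to Acot1. The 23 rows of mitochondrial beta-oxidation had medians of 0.01, 0.04 and 0.05 in the same order, with 16, 18 and 18 above 0.

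Targets of PPAR-alpha in peroxisomes and microsomes, 14 rows tested, had medians of −0.01 for OVX-TPTD minus OVX-vehicle, 0.05 for OVX-vehicle minus Sham-vehicle and 0.03 for OVX-TPTD minus Sham-vehicle, with 6, 13 and 10 rows above 0. Crot, which moves fatty acyl groups onto carnitine in peroxisomes, had a value of 0.20 (SE 0.062, edgeR adjusted p = 0.238) for OVX-TPTD minus Sham-vehicle. The 10 tested rows of other PPAR-alpha targets had medians of −0.05, −0.02 and −0.04 in the same order. Slc27a1, a fatty acid transporter, had −0.13 (SE 0.05, adjusted p = 0.284 from edgeR) for OVX-TPTD minus Sham-vehicle.

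Receptors, partners and coregulators of the PPAR family were below 0 in most cases, with 12 of 14 rows for OVX-TPTD minus OVX-vehicle, 13 of 14 for OVX-vehicle minus Sham-vehicle and 12 of 14 for OVX-TPTD minus Sham-vehicle, and medians of −0.05, −0.07 and −0.12. None passed, and 6 of the 14 had an unadjusted p under 0.05 in the last comparison, where 15.1% of all rows did. The coactivator Ncoa1 had −0.18 (SE 0.066, adjusted p = 0.261) and Ppard, the receptor PPAR-delta, −0.17 (SE 0.058, adjusted p = 0.261) in edgeR for OVX-TPTD minus Sham-vehicle. The pyruvate dehydrogenase complex and its other kinases, 11 rows, had medians of 0.04, 0.02 and 0.07, and the 12 tested lipid droplet and lipoprotein lipase genes −0.09, 0.02 and −0.03.

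**Figure D5:**
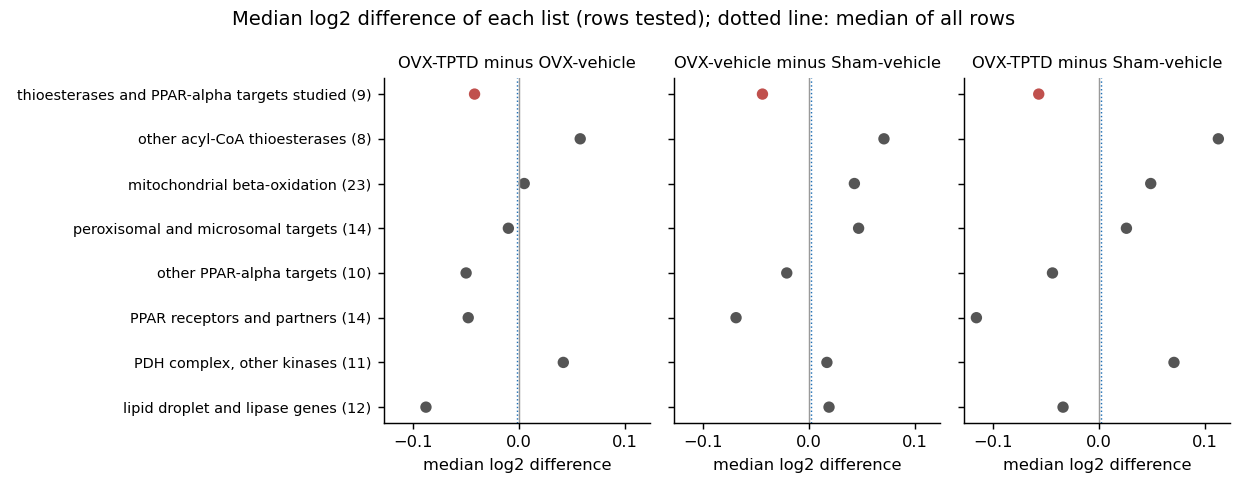
Median log2 difference of the 9 genes (red) and of 7 lists (grey, with the number of rows tested in brackets) in the 3 comparisons, with the median of all 12645 rows as a dotted line. The medians lie between −0.12 and 0.11, and no gene of the lists passed the threshold in edgeR.

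Pdk4, Angptl4 and Cpt1a are also known to respond to glucocorticoids, to the clock or to low oxygen, so lists of these were counted. Of 13 glucocorticoid-responsive, 10 clock output and 10 hypoxia-inducible genes tested, 0 passed in edgeR in any comparison. The glucocorticoid-responsive list had medians of −0.02 for OVX-TPTD minus OVX-vehicle, 0.05 for OVX-vehicle minus Sham-vehicle and 0.07 for OVX-TPTD minus Sham-vehicle. At an unadjusted p under 0.05 in edgeR, its members numbered 0, 1 and 2 in these comparisons, those of the clock list 0, 0 and 2 and those of the hypoxia list 0, 0 and 1, where 3.65%, 4.82% and 15.1% of all rows stood. DESeq2 called 0 of all these genes.

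Cell type markers stood as follows beside the differences of the members. Of 8 neuron markers, 6 had lower values in OVX-TPTD than in Sham-vehicle rats, with a list median of −0.02 on the log2 scale, beside 0.0019 for all rows. Scn10a had −0.22 (SE 0.093), Rbfox3 −0.16 (SE 0.087) and Tubb3 −0.08 (SE 0.046), and none of them passed in edgeR. The summed FPKM of the 8 neuron markers ranged from 13300 to 15400 in OVX-TPTD, 13200 to 16100 in OVX-vehicle and 13700 to 15600 in Sham-vehicle rats. Cpt1a and Acot7, with r = 0.749 and 0.877 to these markers, also had lower values in OVX-TPTD than in Sham-vehicle rats. Of 6 macrophage markers, 6 had higher values in OVX-TPTD than in Sham-vehicle rats, with Mrc1 at 0.34 (SE 0.154, edgeR adjusted p = 0.317). The summed FPKM of 9 adipocyte markers ranged from 10.5 to 13.5 in OVX-TPTD, 10.3 to 14 in OVX-vehicle and 9.87 to 13.4 in Sham-vehicle rats, with Plin1 at or under 0.125 FPKM in every rat and Retn at 0 in all OVX-vehicle rats. That of 7 skeletal muscle markers ranged from 4.27 to 5.19, 4.48 to 10.9 and 3.75 to 8.84. Satellite glial cell markers had 1890 to 2530, 1880 to 2290 and 1790 to 2140, Schwann cell markers 2860 to 3740, 2920 to 4490 and 2880 to 3790, and macrophage markers 40.4 to 69.3, 43.1 to 55.6 and 37.1 to 74.2. Endothelial markers had 45.7 to 57, 48.3 to 55.5 and 44.5 to 58.7. None of the 7 marker lists had a gene that passed in edgeR, and at an unadjusted p under 0.05 a list had at most 2 genes in a comparison. Apoe of satellite glial cells had a log2 difference of 0.18 (SE 0.056, edgeR adjusted p = 0.247) and Mbp of Schwann cells one of 0.20 (SE 0.071, edgeR adjusted p = 0.26) for OVX-TPTD minus Sham-vehicle. The part of these markers in the differences of Acot1, Acot7 and Cpt1a was not tested.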

How the data were processed

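Lumbar DRG RNA from 24 rats was sequenced as stranded, paired-end libraries of polyadenylated RNA. The authors aligned the reads to rn6 (the submitters' notes name TopHat2 2.0.14) and computed FPKM in Genedata Expressionist. The deposited table holds an expected count per row and rat (86.4% of values whole within 0.001) and an FPKM that the authors scaled to transcript length and mapped reads. From these, expected counts were rounded, low rows removed with filterByExpr and 12645 rows fitted in edgeR 4.0.16 (quasi-likelihood, TMM) under R 4.3.3 with 3 group means and Benjamini-Hochberg adjustment. FPKM of 2 groups were compared on the log2 scale with a 2-sided exact permutation test over 12870 divisions of 16 rats. Correlations used log2 CPM (prior count 2) and 100000 permutations within groups. DESeq2 1.42.0, other normalizations and filters, replicate numbers, each rat left out and pseudocounts were alternatives. The procedures were tested on simulated data, and no 2 rats of a group agreed within sampling noise.

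The members and lists were chosen with earlier results of these data known. All 9 members are named, at most the 3 genes with the smallest edgeR p of each list, and a part of the 3 rows most alike to each member. Acot3, Acot4 and the marker genes of the level checks were named for their role. Columns other than the counts and FPKM of the 24 rats were not used for values. Promoter windows came from RefSeq (GRCr8), another build than the table's, so they were matched by gene ID only. Sequencing batches are not given in the sources used here.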

Additional observations from a re-analysis of the deposited data

How the results depend on the processing

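The count of members called in edgeR moved only through Acot1. For OVX-vehicle minus Sham-vehicle it was 0, but 1 with DESeq2, and 0 whichever rat was left out. For OVX-TPTD minus Sham-vehicle it was 0, but 1 with DESeq2, 1 without TMM factors and 1 when rows averaging under 1 FPKM were dropped, settings that called 36, 9 and 9 of all rows, against 4. It ran from 0 to 1 when each rat was left out. It was 1 without Sham-vehicle replicate 5 (adjusted p = 0.0222 from edgeR), Sham-vehicle replicate 6 (0.0335), OVX-vehicle replicate 1 (0.0408), OVX-vehicle replicate 8 (0.0329) or OVX-TPTD replicate 2 (0.0133). In that order, these fits called 6, 4, 14, 5 and 8 of all rows, against 4 with all rats. For both ovariectomized groups minus Sham-vehicle it was 1, and from 0 to 1 when each rat was left out. For OVX-TPTD minus OVX-vehicle it stayed at 0 in every fit run. With the replicate number as a replicate block, the count for OVX-TPTD minus Sham-vehicle was 1 (Acot1, adjusted p = 0.0398 from edgeR), and all rows called numbered 10 against 4. Rats of the same number correlated between −0.13 and 0.17 in their deviations, so the numbers do not pair the rats. The numbers still carry structure, since 22 of 12645 rows were called for numbers 5 to 8 minus 1 to 4, more than in any group comparison in edgeR with all rats. Among the members, Angptl4 had −0.29 there (unadjusted p = 0.00276 and adjusted p = 0.265 from edgeR). Of the list genes, 1 (Nr1d2 of the clock list) was called under the block for OVX-TPTD minus Sham-vehicle, against 0 without it. The sums of rows and the comparison of both ovariectomized groups with Sham-vehicle were chosen after seeing the data.

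At the unadjusted FPKM thresholds, Acot5 was lost by construction with log2(FPKM + 1), which shrinks low values, and when rows averaging under 1 FPKM were dropped. The count was then 1 for OVX-vehicle minus Sham-vehicle and 0 for OVX-TPTD minus OVX-vehicle under each. In OVX-TPTD minus OVX-vehicle it ran from 0 to 1 when each rat was left out, with 0 without OVX-TPTD replicates 3, 5 or 8 or OVX-vehicle replicates 2, 5 or 6. The correlation of Acot7 and Cpt1a left 0 passing pairs within replicate numbers 1 to 4 and 0 within 5 to 8, where fewer rats entered. The 1172 recomputed log2 differences of members include the sums of Acot rows, entered as alternatives for Acot1. Of the 1172, 1153 kept their side of the threshold and moved by less than 1 SD between rats, and 0 called values changed sign. Depth limits Acot5 and Ppara most, with at most 22.5 and 51 counts per rat.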
